A study of Mus musculus with 9 samples.

Results

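The 10 genes described here encode homeodomain transcription factors that divide progenitors of the ventral neural tube into domains. They were taken as the rows with the exact symbols Nkx2-2, Nkx2-9, Nkx6-1, Nkx6-2, Pax6, Irx3, Irx5, Dbx1, Dbx2 and Pax7, and all 10 were found among the 38197 symbols of the tables. Sonic hedgehog (Shh), secreted from the notochord and floor plate, induces the class II factors such as Nkx2-2 and Nkx6-1 and represses the class I factors such as Pax6, Irx3 and Pax7. Pairs of class I and class II factors repress each other's transcription, largely through co-repressors of the Groucho/TLE family, so that each progenitor domain holds its own combination.

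The cells were neural progenitors differentiated from wild-type mouse embryonic stem cells of strain 129 in monolayer. By the labels, all cultures received retinoic acid (RA) and SAG, an agonist of the Shh receptor component Smoothened, from day 0 to 3 of differentiation, and the study's methods place the end of this treatment slightly later. Cells were sorted for the surface protein prominin-1 after 4.5, 5.5 or 6.5 days in differentiation conditions (4.5DDC, 5.5DDC and 6.5DDC), with 3 libraries at each time point. By their labels the groups differed only in time, no untreated culture was analysed here, and a single genotype and strain limits the model. The total count per library lay between 11066572 and 25506192. Nothing in the labels said whether the 3 replicates came from separate cultures, so p-values measure the spread between these libraries.

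The libraries of replicate 1 stood apart from those of replicates 2 and 3 at every time point. In a test of the replicate number with edgeR's quasi-likelihood method, 798 of 14742 genes (5.41%) had a Benjamini-Hochberg adjusted p under 0.05, and 1 of the 7 tested members, Nkx2-2, was among them. With 1 library left out, the number of genes called ranged from 206 (without 5.5DDC replicate 1) to 1248 (without 6.5DDC replicate 3). The genes that mark position along the hindbrain and spinal cord, mostly Hox genes, were summed as FPKM, which are fragments scaled to transcript length and library size. The sums were 37.9, 38.1 and 30.0 FPKM in replicate 1 at 4.5DDC, 5.5DDC and 6.5DDC. Their sums in replicates 2 and 3 ranged from 84.1 to 141 FPKM, so the replicates did not overlap, and 9 of the 12 tested genes of that list were called lower in replicate 1. Hoxb5 lay between 0.182 and 0.257 FPKM in replicate 1 and between 3.58 and 22.6 FPKM in the others. Results for the members are therefore given with all libraries and, where the call differs, with replicates 2 and 3 alone. For the gene lists described below, the fit with replicates 2 and 3 alone was not examined. The part of the replicate in these results was not tested.

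Nkx2-2, which specifies the p3 domain next to the floor plate, was the second most abundant of the genes per transcript length. Its level was 7.87, 14.2 and 11.1 FPKM in replicates 1, 2 and 3 at 4.5DDC. It was 10.2, 17.2 and 17.9 FPKM at 5.5DDC and 7.28, 12.5 and 18.8 FPKM at 6.5DDC. Replicate 1 was the lowest of the 3 libraries at each time point, and the time points overlapped. The fitted log2 difference between 4.5DDC and 6.5DDC was 0.16 ± 0.35 (SE), with a 95% interval from −0.63 to 0.95 and an edgeR adjusted p of 0.780. Changes within that interval could not be told apart from none with 3 libraries per time point. Its log2 difference between replicate 1 and the mean of replicates 2 and 3 was −0.86 ± 0.17, with an edgeR adjusted p of 0.0435 for the replicate number. That call was lost without any 1 of 7 libraries, with an edgeR adjusted p of 0.183 and a log2 difference of −0.92 without 5.5DDC replicate 1, and was kept without 4.5DDC replicate 3 or 6.5DDC replicate 3. The log2 difference ranged from −0.92 to −0.75 over these fits.

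Nkx2-9, a close relative of Nkx2-2 that is transcribed in an overlapping ventral territory early in development, had a different course. Its level was 1.82, 9.18 and 2.93 FPKM in replicates 1, 2 and 3 at 4.5DDC. It was 0.500, 1.17 and 0.904 FPKM at 5.5DDC and 0.0561, 0.128 and 0.312 FPKM at 6.5DDC. The 3 time points did not overlap, and the values decreased from each time point to the next. The counts behind the last values were 1, 3 and 10, so that 2 of the 3 libraries stood at or under the floor of 3 counts. From 4.5DDC to 6.5DDC the log2 level of Nkx2-9 fell by 4.59 ± 0.78 (SE, edgeR adjusted p = 0.00537), which left 3.56% of the initial mean FPKM. The log2 difference was −3.75 without 4.5DDC replicate 2 and −5.67 without 6.5DDC replicate 3, and the call was kept in both cases. In bulk RNA, fewer cells that transcribe a gene and less RNA per cell cannot be told apart.

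**Figure D1:**
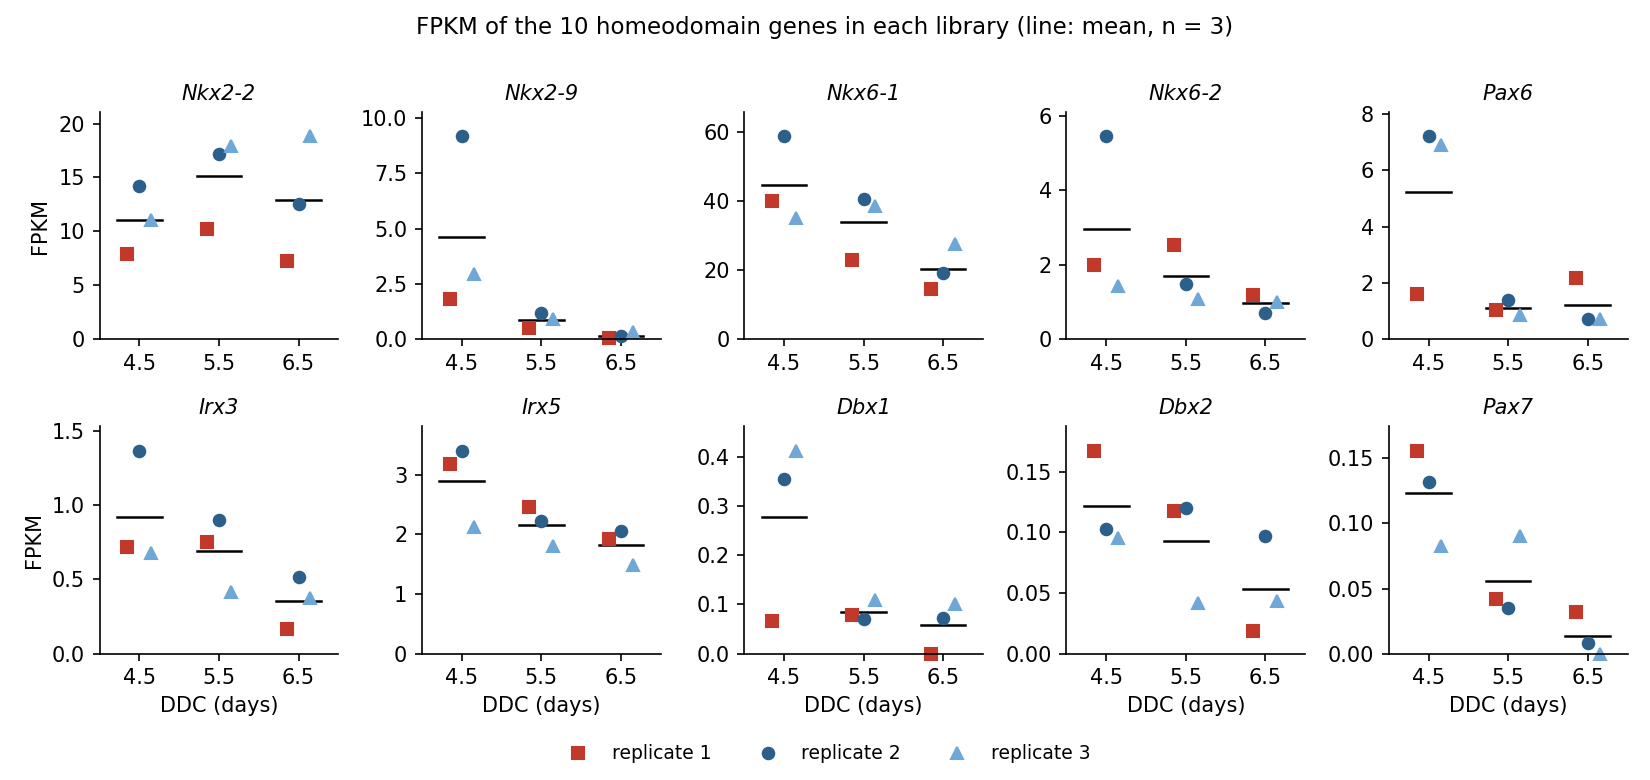
FPKM (vertical axes, linear from 0, a separate scale for each gene) of the 10 genes against days in differentiation conditions (DDC), with squares, circles and triangles for replicates 1, 2 and 3 and a line at the mean of the 3 libraries. Nkx2-9 drops from a mean of 4.64 to 0.165 FPKM between 4.5DDC and 6.5DDC, while Nkx2-2 stays between 7.28 and 18.8 FPKM in all 9 libraries.

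The promoters of this pair are shown because the paralogues took different courses in the same libraries. Of the 10 genes, 9 matched an entry in the RefSeq promoter table (GRCm38.p6), which covers 250 bases before to 50 bases after a start site. The Nkx2-2 window lies at chr2:147186353-147186652 and the Nkx2-9 window at chr12:56613235-56613534, both on the minus strand and written 5′ to 3′ along the gene. Capitals mark matches to the motifs searched.
Nkx2-2: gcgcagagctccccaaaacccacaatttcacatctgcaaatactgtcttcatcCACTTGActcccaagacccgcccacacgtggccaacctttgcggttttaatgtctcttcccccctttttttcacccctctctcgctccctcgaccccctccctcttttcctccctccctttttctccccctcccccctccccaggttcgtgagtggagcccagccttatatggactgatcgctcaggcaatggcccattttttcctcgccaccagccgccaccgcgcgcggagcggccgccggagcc
Nkx2-9: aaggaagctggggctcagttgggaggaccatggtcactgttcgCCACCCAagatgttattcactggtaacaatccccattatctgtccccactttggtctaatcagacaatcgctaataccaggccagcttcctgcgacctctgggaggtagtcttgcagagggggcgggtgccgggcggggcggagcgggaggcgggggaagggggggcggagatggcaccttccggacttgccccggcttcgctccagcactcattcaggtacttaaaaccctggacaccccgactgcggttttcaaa

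The motifs were GACCACCCA, the consensus bound by Gli factors, its last 7 letters CCACCCA, the NK-2 class motif TCAAGTG and the homeodomain motif TAATTA. Each was searched on both strands. The second motif lies within the first. The Nkx2-2 window held TCAAGTG on the opposite strand, 197 bases before the start site, and 3.06% of 32851 promoter windows of the same length held that motif. The Nkx2-9 window held CCACCCA 207 bases before the start site, as did 9.30% of all windows. GACCACCCA occurred in 0.253% and TAATTA in 5.29% of all windows, and neither occurred in the windows of the 9 genes. These matches describe letters in a short window and not sites of binding.

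Within each library the ratio of Nkx2-9 to Nkx2-2 was taken on the FPKM scale. Nkx2-9 stood at 23.1%, 64.7% and 26.5% of Nkx2-2 in replicates 1, 2 and 3 at 4.5DDC. It stood at 4.89%, 6.81% and 5.05% at 5.5DDC and at 0.770%, 1.02% and 1.66% at 6.5DDC. The mean log2 ratio moved from −1.55 ± 0.81 (SD, n = 3) to −6.51 ± 0.56 with no overlap between libraries, a difference of −4.96. The two-sided exact permutation p was 0.1, the smallest that 3 libraries against 3 allow, and 0.3 after adjustment over the 3 pairs tested.

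**Figure D2:**
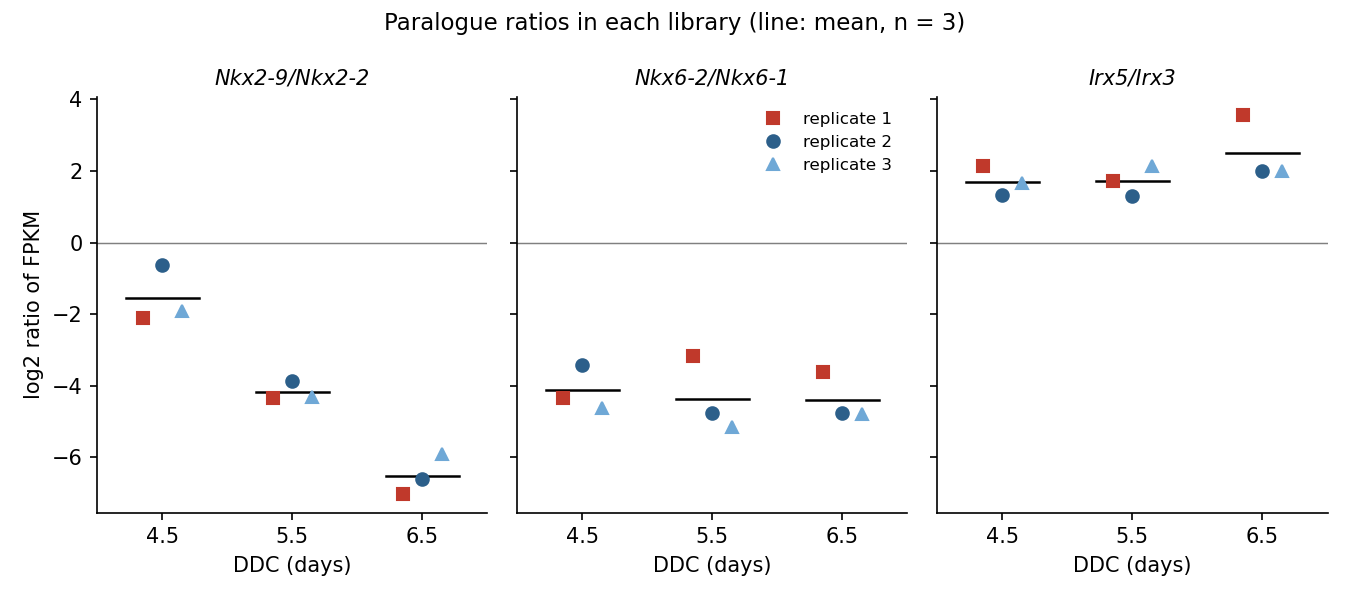
Log2 ratio of FPKM (vertical axis) of Nkx2-9 to Nkx2-2, Nkx6-2 to Nkx6-1 and Irx5 to Irx3 in each library against days in differentiation conditions, with a line at the mean of 3 libraries. The first ratio moves from a mean of −1.55 to −6.51, whereas the libraries of 4.5DDC and 6.5DDC overlap for the other pairs.

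Nkx6-1, which is transcribed from the p3 to the p2 domain and is required for motor neuron progenitors, was the most abundant of the 10 genes per length at every time point. It measured 40.1, 58.7 and 35.0 FPKM in replicates 1, 2 and 3 at 4.5DDC. It measured 22.9, 40.6 and 38.7 FPKM at 5.5DDC and 14.6, 19.1 and 27.5 FPKM at 6.5DDC. All libraries of 6.5DDC lay below all libraries of 4.5DDC, while 5.5DDC overlapped both. From 4.5DDC to 6.5DDC the log2 level of Nkx6-1 fell by 1.14 ± 0.28 (SE, edgeR adjusted p = 0.0220), which left 45.7% of the initial mean FPKM. The adjusted p was 0.0833 without replicate 2 of 4.5DDC, the library in which the gene was highest, and 0.0802 without 6.5DDC replicate 2, so the call was lost in both cases, with log2 differences of −0.92 and −1.11.

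Nkx6-2, the paralogue found in ventral and intermediate progenitors, was much less abundant than Nkx6-1. Its level was 1.98, 5.44 and 1.42 FPKM in replicates 1, 2 and 3 at 4.5DDC. It was 2.52, 1.50 and 1.09 FPKM at 5.5DDC and 1.19, 0.700 and 0.991 FPKM at 6.5DDC. The first and last time points did not overlap, but the gap was narrow and the high value of 4.5DDC replicate 2 set most of the mean. Its log2 level fell by 1.64 ± 0.50 (SE, edgeR adjusted p = 0.0485). The log2 difference was −0.89 with an edgeR adjusted p of 0.193 without that library. The call was also lost without replicate 2 or 3 of 5.5DDC (0.0723 and 0.0646) and without replicate 1, 2 or 3 of 6.5DDC (0.0625, 0.162 and 0.0886), with log2 differences from −1.80 to −1.41 in these 5 fits. Annotated exons of Inpp5a on the other strand cover 12.9% of the exon bases of Nkx6-2, and whether the counting used strand was not given in the sources used here.

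The ratio of Nkx6-2 to Nkx6-1 showed no such separation as that of the Nkx2 pair. Nkx6-2 stood at 4.95%, 9.27% and 4.05% of Nkx6-1 in replicates 1, 2 and 3 at 4.5DDC and at 8.20%, 3.67% and 3.60% at 6.5DDC. The mean log2 ratio differed by −0.26 between these time points, the libraries overlapped, and the two-sided exact permutation p was 0.5 before and after adjustment. Without 4.5DDC replicate 2 the difference was 0.09, of the opposite sign.

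Pax6, a class I factor that is graded across the intermediate neural tube and low in the p3 domain, differed between the replicates at 4.5DDC. Its level was 1.62, 7.21 and 6.89 FPKM in replicates 1, 2 and 3. At 5.5DDC it was 1.04, 1.39 and 0.879 FPKM, and at 6.5DDC it was 2.19, 0.722 and 0.719 FPKM. The libraries of 4.5DDC and 5.5DDC did not overlap, but replicate 1 of 6.5DDC lay above replicate 1 of 4.5DDC. The fitted log2 difference over the whole span was −1.85 ± 0.60 (edgeR adjusted p = 0.0575), which missed the threshold. With replicates 2 and 3 alone it was −2.90 with an adjusted p of 0.00135, whereas between the replicate 1 libraries the log2 difference of counts scaled to library size (CPM) was 0.54. Pax6 was called without 4.5DDC replicate 1 (−2.27, edgeR adjusted p = 0.0194) and without 6.5DDC replicate 1 (−2.48, 0.0279), while without 4.5DDC replicate 2 the difference was −1.18 (0.229). FPKM and counts gave Pax6 different relative levels, since 1 CPM corresponded to 0.640 FPKM in 4.5DDC replicate 3 and to between 0.319 and 0.542 FPKM in the other libraries.

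Irx3 and Irx5, Iroquois factors of the class I group that bound the ventral domains from above, lie on the same chromosome with 555557 bases between them. Irx3 measured 0.720, 1.37 and 0.674 FPKM in replicates 1, 2 and 3 at 4.5DDC. It measured 0.751, 0.899 and 0.412 FPKM at 5.5DDC and 0.164, 0.517 and 0.372 FPKM at 6.5DDC. Libraries of the first and last time points did not overlap, but the log2 difference of −1.27 ± 0.48 had an edgeR adjusted p of 0.0906 and was not called. Irx5 measured 3.18, 3.40 and 2.12 FPKM at 4.5DDC, 2.46, 2.23 and 1.81 FPKM at 5.5DDC and 1.92, 2.06 and 1.48 FPKM at 6.5DDC. Its values were the least spread of the 10 genes, with a coefficient of variation of 27.4% over the 9 libraries, and replicate 3 was the lowest at each time point. The Irx5 difference was −0.68 ± 0.26 with an edgeR adjusted p of 0.0993, again without overlap between 4.5DDC and 6.5DDC. The two-sided exact permutation p for the ratio of Irx5 to Irx3 was 0.3, or 0.45 adjusted over 3 pairs.

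Dbx1 and Dbx2, which mark the p0 and p1 domains, and Pax7, a class I factor of dorsal progenitors, fell below the filter on low counts and were not tested in the main fit. Dbx1 had 3, 10 and 15 counts in replicates 1, 2 and 3 at 4.5DDC and between 0 and 5 counts in the later libraries. Dbx2 had between 1 and 13 counts and did not exceed 0.167 FPKM. Pax7 had 21, 5 and 9 counts at 4.5DDC, 8, 3 and 6 at 5.5DDC, and 3, 1 and 0 at 6.5DDC. Pax7 did not exceed 0.156 FPKM. Without the filter, Pax7 was called over the whole span with a log2 difference of −2.94 (edgeR adjusted p = 0.0385). Dbx1 was not called in that fit (−2.10, edgeR adjusted p = 0.136). It was called only with replicates 2 and 3 alone or without 4.5DDC replicate 1, in fits that kept the filter and that it passed. A count of 0 allowed up to 0.233 CPM in 6.5DDC replicate 1 for Dbx1 and 0.189 CPM in 6.5DDC replicate 3 for Pax7, counting error only. For these genes absence was not shown, and the levels were near the limit of detection.

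The order of levels per length was similar at the 3 time points at its upper end. Nkx6-1 came first and Nkx2-2 second by mean FPKM at each of them, and Nkx6-1 exceeded Nkx2-2 in all 3 libraries of each time point. Their ranges did not overlap at 4.5DDC and 5.5DDC but did at 6.5DDC. At 4.5DDC, Pax6 (5.24 ± 3.14 FPKM, SD, n = 3), Nkx2-9 (4.64 ± 3.97), Nkx6-2 (2.95 ± 2.18) and Irx5 (2.90 ± 0.68) followed, and each overlapped the next. At 6.5DDC, Irx5 (1.82 ± 0.30), Pax6 (1.21 ± 0.85) and Nkx6-2 (0.962 ± 0.248) overlapped in the same way, and Nkx2-9 had moved below Irx3. Dbx1, Dbx2 and Pax7 held the last 3 places throughout.

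Summed on the FPKM scale, the 4 class II genes made up most of the signal of the 10 genes in each library. Their share was 89.8%, 87.4% and 83.1% in replicates 1, 2 and 3 at 4.5DDC, and 84.2%, 90.3% and 94.6% at 6.5DDC. These ranges overlapped. Nkx2-2 alone made up 13.6%, 14.2% and 18.2% of the sum at 4.5DDC, 25.2%, 26.3% and 28.9% at 5.5DDC and 26.6%, 34.9% and 37.4% at 6.5DDC. The share at 4.5DDC overlapped neither later time point, while the FPKM of Nkx2-2 itself did overlap.

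Taken by interval, the 7 tested members had few calls. Between 4.5DDC and 5.5DDC, edgeR called 0 of 7 members, against 11 of 14742 genes (0.0746%). The unadjusted p was under 0.05 for 2 members and 2275 genes, and DESeq2 called 2 members, Nkx2-9 and Pax6, and 440 genes. With the replicate number as a block, edgeR called 1 member, Nkx2-9 (log2 difference −2.38, adjusted p = 0.0407), and 212 genes. Between 5.5DDC and 6.5DDC, edgeR again called 0 of 7, against 33 genes (0.224%), with an unadjusted p under 0.05 for 2 members and 2733 genes, and DESeq2 called 0 members and 616 genes. With the block, edgeR called 0 members and 195 genes in this interval. With 1 library left out and no block, the number of genes called moved in both intervals. It ranged from 1 (without 4.5DDC replicate 3) to 28 (without 6.5DDC replicate 1) between 4.5DDC and 5.5DDC. Between 5.5DDC and 6.5DDC it ranged from 0 (without 5.5DDC replicate 2) to 196 (without 6.5DDC replicate 1). Over the whole span 3 of 7 were called, against 2763 genes (18.7%). All 3, namely Nkx2-9, Nkx6-1 and Nkx6-2, were lower at 6.5DDC, as were 1405 of all genes tested (9.53%).

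With replicates 2 and 3 alone, edgeR called 4586 of 14638 genes over the whole span (31.3%), more than with all libraries, and 5 of the 8 members tested in this fit, which were Nkx2-9, Nkx6-1, Nkx6-2, Pax6 and Dbx1. In the first interval it called 485 genes (3.31%) and 2 of the 8 members, Nkx2-9 and Pax6. Dbx1 passed the filter in this fit but not in the main fit. It had 10 and 15 counts at 4.5DDC and 2 to 4 counts in the later libraries of this fit. Dbx1 thus passed only through the time point where it was high, so its call as lower carries no separate weight. Between the replicate 1 libraries the log2 differences of scaled CPM over the whole span were −5.20 for Nkx2-9, −1.41 for Nkx6-1 and −0.77 for Nkx6-2. The sign for the 3 called genes was thus the same in both sets of libraries.

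Overlap of the libraries was a looser criterion. The FPKM of 5 of the 7 tested members did not overlap between 4.5DDC and 6.5DDC, against 34.5% of all genes tested. Between 4.5DDC and 5.5DDC this held for 2 of 7, Nkx2-9 and Pax6, against 23.8%, and between 5.5DDC and 6.5DDC for 1, Nkx2-9, against 24.0%. The median log2 difference of the 7 members over the whole span was −1.27, beside 0.00 for all genes tested, and 6 of the 7 estimates were below 0.

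**Figure D3:**
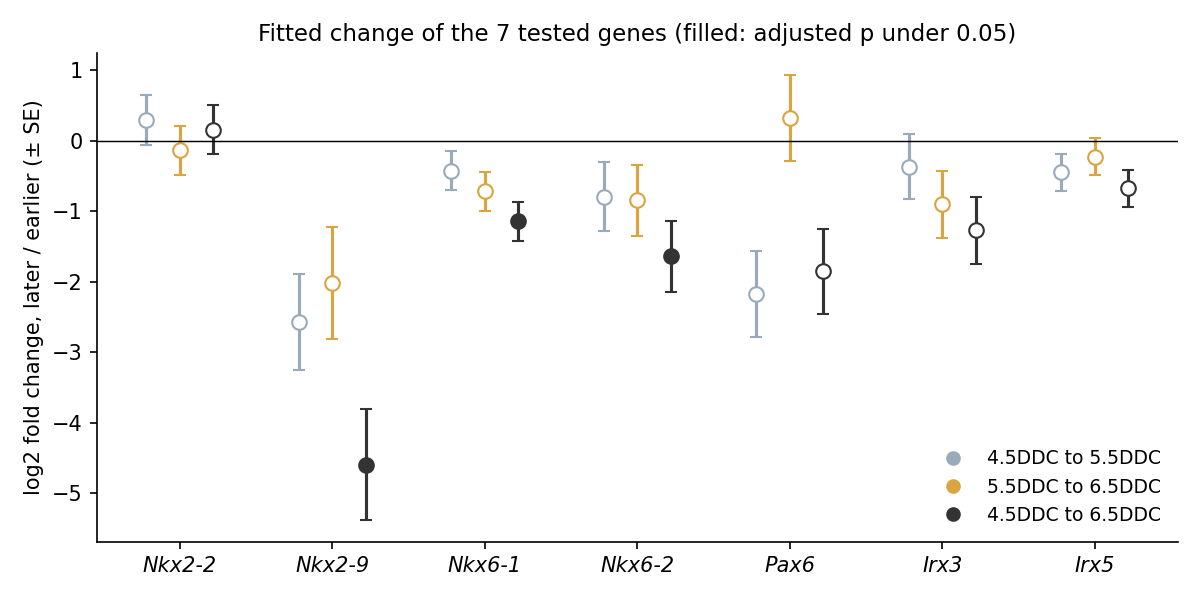
Fitted log2 fold change, later over earlier, with bars of 1 standard error (vertical axis) for the 7 tested genes and each pair of time points, with filled circles where the edgeR adjusted p was under 0.05. Only Nkx2-9, Nkx6-1 and Nkx6-2 have a filled circle, each for 4.5DDC to 6.5DDC, at −4.59, −1.14 and −1.64.

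The genes of the Shh pathway were set beside the members because SAG acts on it. All 11 listed genes were tested. Gli1, a transcription factor and direct transcriptional target of the pathway, measured 2.34, 8.77 and 3.29 FPKM in replicates 1, 2 and 3 at 4.5DDC and 0.223, 0.550 and 0.915 FPKM at 6.5DDC. The log2 differences were −3.02 for Gli1 (edgeR adjusted p = 0.00985), −3.09 for Gli2, −2.61 for Gli3 and −0.99 for the receptor Ptch1 over the whole span, all called. Smo, the target of SAG, was the most abundant gene of the list in every library of 5.5DDC and 6.5DDC, lay below Ptch1 in replicates 2 and 3 of 4.5DDC, and was not called (log2 difference −0.38, edgeR adjusted p = 0.155). The part of these genes in the courses of the members was not tested.

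The ligand Shh itself belongs to the floor plate list, of which 8 of 8 genes were tested. None was called lower over the whole span. Shh measured 185, 117 and 138 FPKM in replicates 1, 2 and 3 at 4.5DDC and 222, 286 and 263 FPKM at 6.5DDC, a log2 difference of 0.79 (edgeR adjusted p = 0.0321). Spon1, Ntn1 and Ferd3l were also called higher, while Foxa1 and Foxa2 were not called. The summed level of the 8 genes was 947.7, 608.8 and 610.2 FPKM at 4.5DDC, 1717, 1179 and 1187 FPKM at 5.5DDC and 1407, 1347 and 1476 FPKM at 6.5DDC. Ntn1 was the most abundant in every library of 4.5DDC and Spon1 in every library of 6.5DDC. None of the 8 genes was at 0, and Shh, Spon1 and Ntn1 each exceeded Nkx6-1 in FPKM in every library. The part of floor plate cells in the results for the members was not tested.

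Within the ventral progenitor group, Olig2, which marks motor neuron progenitors and is repressed by Nkx2-2, separated the replicates. It measured 0.564, 9.97 and 4.45 FPKM in replicates 1, 2 and 3 at 4.5DDC, and 0.0533, 0.528 and 1.44 FPKM at 6.5DDC. Of 9 genes in that list 3 were tested, and Olig1, Olig2 and Sp8 were called for the replicate number, lower in replicate 1. Their log2 differences over time were not called in the main fit. With the replicate number as a block, Olig2 and Sp8 were called lower between 4.5DDC and 5.5DDC (edgeR adjusted p = 0.0482 and 0.0294). Nkx2-2 was likewise lowest in replicate 1 at each time point.

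**Figure D4:**
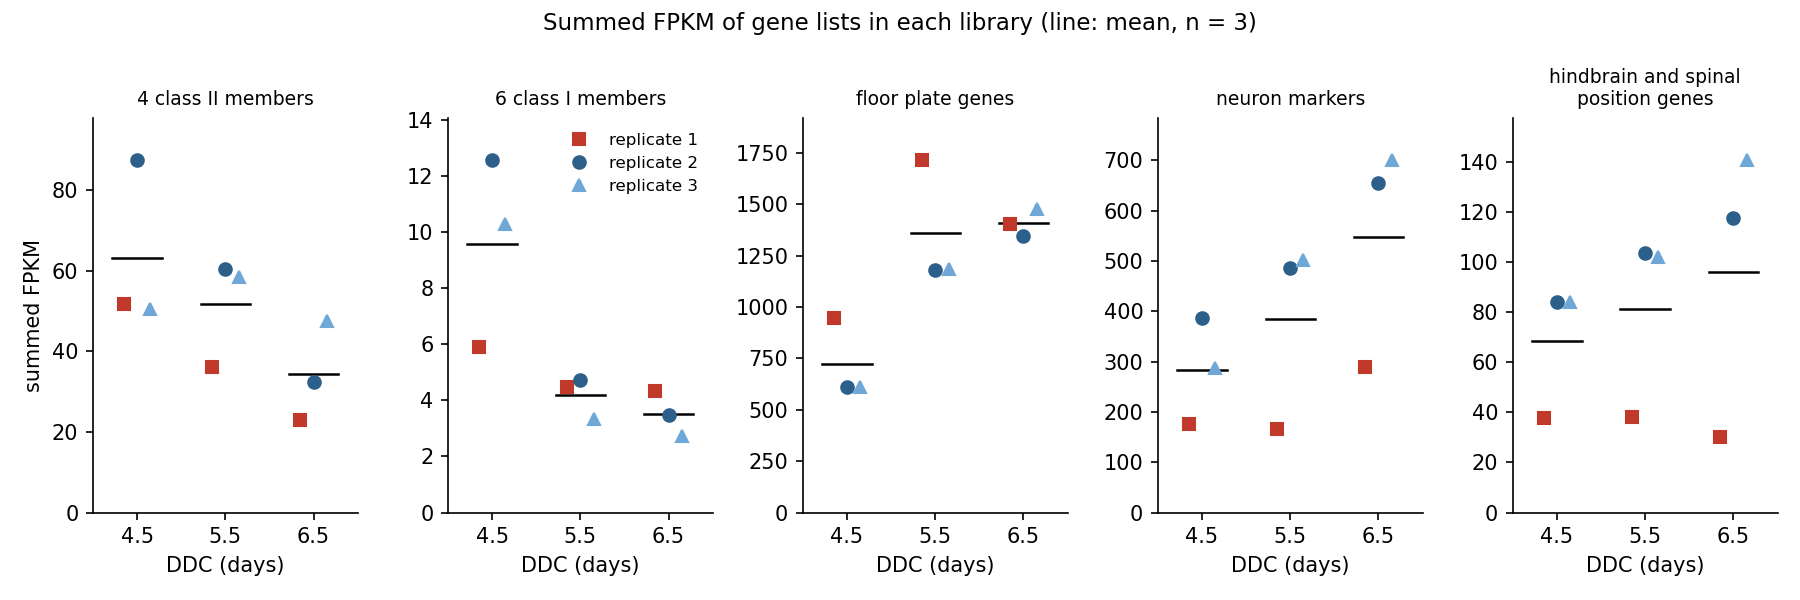
Summed FPKM (vertical axes, linear from 0, a separate scale for each list) in each library against days in differentiation conditions, with a line at the mean of 3 libraries. Replicate 1 lies at 30.0 to 38.1 FPKM for the position genes and below the other libraries of its time point for the neuron markers, while the floor plate genes are at 947.7 FPKM or less in the 3 libraries of 4.5DDC.

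Genes of the dorsal neural tube were scarce. The 17 listed factors summed to between 1.67 and 5.14 FPKM in a library, and Atoh1 and Ptf1a were at 0 in all libraries. Of the 6 tested, edgeR called 0 over the whole span. Among the Irx and Pax relatives of the members, Irx2 was the most abundant at 10.4 to 16.4 FPKM and exceeded Irx3 and Irx5 in every library, and 0 of 4 tested genes were called over time or for the replicate number. Nkx2-6 was at 0 throughout.

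The Groucho/TLE co-repressors and the associated deacetylases were represented by 8 genes, among them Tle5 under its earlier symbol Aes, and all 8 passed the filter. Over the whole span only Tle3 was called, with a log2 difference of −0.68 (edgeR adjusted p = 0.0394). Tle3 measured 50.7, 69.1 and 53.4 FPKM in replicates 1, 2 and 3 at 4.5DDC and 24.2, 31.0 and 41.7 FPKM at 6.5DDC. Hdac2, the most abundant of the list, lay between 140.3 and 262.1 FPKM and was not called.

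Neurons that arise from the ventral domains were followed through 22 transcription factors, of which 12 were tested. Over the whole span 4 were called higher and 2 lower. Those higher were Gata2, Gata3, Fev and Sim1, the last a factor of V3 interneurons that descend from the p3 domain. Sim1 measured 0.411, 0.178 and 0.254 FPKM in replicates 1, 2 and 3 at 4.5DDC and 0.349, 4.02 and 7.22 FPKM at 6.5DDC, so that replicate 1 overlapped the earlier time point. Those lower were Isl1 and Phox2a, factors of cranial motor neurons, with log2 differences of −2.44 and −2.15. Evx2 and Lbx1 were at 0 in all libraries. The summed level was 72.2, 135.5 and 100.5 FPKM at 4.5DDC and 29.3, 66.4 and 78.7 FPKM at 6.5DDC. The general neuron markers, of which Tubb3 had no match, summed to 175.5, 387.5 and 287.4 FPKM at 4.5DDC and 289.2, 654.6 and 701.1 FPKM at 6.5DDC. Map2 alone was called higher over the whole span, Dcx was called higher in the second interval when replicates were blocked (edgeR adjusted p = 0.0240), and 6 of 7 were called for the replicate number.

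The label of the sorted cells was checked against neural progenitor markers. Sox2 lay between 78.2 and 96.0 FPKM and Nes between 138.1 and 171.8 FPKM in all libraries, and neither was called over time. Prom1, the gene of the sorted surface protein, was called higher at 6.5DDC (log2 difference 1.19), and Sox3 was called lower. Pluripotency markers summed to between 2.44 and 6.49 FPKM, with Klf4 the most abundant. Forebrain and eye markers summed to at most 0.961 FPKM. As Nkx2-2, Nkx6-1 and Pax6 are also transcribed in pancreas, endoderm and pancreas genes were examined, and Pdx1, Ins1, Ins2 and Gcg were at 0 in all libraries. The summed level of that list was highest in 6.5DDC replicate 1 at 13.2 FPKM and at most 3.70 FPKM elsewhere, with Gata4 the most abundant. Neural crest and mesenchyme markers summed to between 7.19 and 52.7 FPKM. Twist1 was the most abundant of them in all libraries of 4.5DDC and in every replicate 1, Col3a1 in the remaining libraries, and Twist1 was called higher over the whole span. The part of these cells in the members' courses was not tested.

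RA response genes were also followed, since RA had been applied with SAG. Of 9 tested, Dhrs3 was called higher and Crabp1 and Crabp2 lower over the whole span. Crabp1, which encodes a cytoplasmic RA-binding protein, measured 162.1, 323.1 and 188.6 FPKM in replicates 1, 2 and 3 at 4.5DDC and 12.2, 44.7 and 51.2 FPKM at 6.5DDC. Rarb, Aldh1a2, Dhrs3 and Crabp1 were called for the replicate number, lower in replicate 1.

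The genes whose course over the 9 libraries was most like that of each member were named by the root mean square difference of centred log2 CPM, among 12404 candidate genes. For Nkx2-9 these were Gli1 at 0.51, Crabp1 at 0.69 and Lin28a at 0.82, against a root mean square of 1.83 for Nkx2-9 about its own mean. For Nkx2-2 they were Nat8l, Tspan15 and Cacng4, at 0.12 to 0.14 against 0.45. For Nkx6-1 they were Serpinf1, Slc1a5 and Gapdh, at 0.14 to 0.17 against 0.58, and for Nkx6-2 they were Gm4617, Snrpb and Gm11942, at 0.20 against 0.78. For Pax6 they were Gm8752, Crabp2 and Psat1, at 0.51 to 0.56 against 1.09. For Irx3 they were Sac3d1, Shisa2 and Grrp1, at 0.34 to 0.37 against 0.72. For Irx5 they were Gm12565, Rad51b and Cmc2, at 0.14 to 0.17 against 0.36. Gli1 and Crabp1 were also among the called genes of the Shh and RA lists. As they were picked for a course like that of Nkx2-9 in the same libraries, those calls are not a separate result.

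By position in GRCm38 (GENCODE M21 annotation) the members are spread over 7 chromosomes. Nkx2-9 lies at chr12:56611389-56613284 on the minus strand, 74480 bases from its neighbour Nkx2-1, which was at or below 0.921 FPKM in every library. Nkx6-1 lies at chr5:101658139-101664996 and Nkx6-2 at chr7:139579376-139582797, both on the minus strand. Nkx2-2 lies at chr2:147177546-147194243, where exons of the antisense gene Nkx2-2os cover 9.67% of its exon bases. For Irx3 the antisense gene Irx3os covers 4.49%. Nkx2-2os, Irx3os and Crnde had no match in the tables, Pax6os1 was at 0, and reads of antisense partners could not be told apart from those of the genes without strand. Of the neighbours listed with them, Rpgrip1l was called higher over the whole span and Elp4, Fto and Mipol1 were not called.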

How the data were processed

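RNA of prominin-1 sorted progenitors was sequenced in 9 libraries, 3 at each of 3 time points, and the labels gave the time point of each. The authors mapped reads to GRCm38 with TopHat2 2.0.4 and counted them per gene with HTSeq 0.6.1, and deposited counts without normalization. For 98 of 38197 symbols the deposited values were not whole, so the table was handled as estimated counts (expected counts) and rounded. Why they were not whole is not known. The authors computed FPKM with Cufflinks 2.1.1, and levels were taken from the deposited FPKM. A deposited table of log2 counts from voom was not used.

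Counts were filtered by filterByExpr, which left 14742 genes and 7 of the 10 members, scaled by TMM (factors 0.951 to 1.04) and tested in edgeR 4.0.16 with one quasi-likelihood fit of all 9 libraries and a Benjamini-Hochberg threshold of 0.05. The fit was tested on simulated data. Alternatives used DESeq2, limma, other scaling, other filters and fewer libraries. Paralogue ratios were tested by exact permutation. Named genes were the members, list genes needed to describe a list (mostly the most abundant and those called), and the 3 genes nearest to each tested member among those that averaged 2 FPKM or more at some time point. Further list genes were named after their values were seen. The members and lists were chosen with earlier results of these data known, and the promoter motifs after the sequences were seen. The source names give days as whole numbers, and the time points were taken from the titles. Floors and intervals cover counting error only. The replicate numbers were taken as pairing adjacent time points. For 4.5DDC and 5.5DDC the deviations of all 3 same-numbered pairs of libraries correlated across genes at 0.39 to 0.74. For 5.5DDC and 6.5DDC they correlated at 0.20 to 0.45. Replicates 2 and 3 correlated with each other at 0.29 and 0.39, and at 0.22 and 0.41. Replicate 1 correlated with the others at −0.65 to −0.25. These values set replicate 1 apart but do not show that numbers 2 and 3 pair. The labels name no shared batch or day.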

Additional observations from a re-analysis of the deposited data

How the results depend on the processing

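Over the whole span Nkx2-9 was called in 19 of 19 alternatives, Nkx6-1 in 17, Nkx6-2 in 7, Pax6 in 5, Irx3 in 1, and Nkx2-2 and Irx5 in 0. The members called numbered 5 instead of 3 without a filter and with DESeq2 (both with Pax6 and Pax7 added) and with replicates 2 and 3 alone, where all genes called were 2596, 3614 and 4586 instead of 2763. They numbered 2, without Nkx6-2, with library totals, limma voom, limma on either log2 FPKM scale and only the 6 libraries compared, and ranged from 1 to 5 in the leave-one-out fits, with 1125 to 3132 genes called. For the first interval they numbered 2 instead of 0 with DESeq2 and with replicates 2 and 3 alone, and for the second interval 0 throughout. The members called for the replicate number were 0 instead of 1 with limma voom and ranged from 0 to 2 in the leave-one-out fits, where Nkx2-9 was added without 6.5DDC replicate 3. In all genes, DESeq2 called 440, 616 and 3614.

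Estimates that were not called also turned. The log2 difference of Pax6 from 5.5DDC to 6.5DDC was −0.0367 with limma on log2(FPKM + 0.1) and −0.49 with replicates 2 and 3 alone, instead of 0.32. The leave-one-out ranges were −0.30 to 0.61 for the same difference, −0.49 to 0.14 for Nkx2-2 from 5.5DDC to 6.5DDC, and −0.19 to 0.44 for Nkx2-2 over the whole span. For replicate 1 against the others they were −0.18 to 0.54 for Nkx6-2 and −1.29 to 0.52 for Pax6, and for the ratio of Nkx6-2 to Nkx6-1 they were −0.65 to 0.0903. The cause was not tested.

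With the replicate number as a block (checked under the processing), members called were 1 (Nkx2-9), 0 and 3 (Irx3, Nkx2-9 and Nkx6-1), and all genes called were 212, 195 and 3418. In adjacent intervals the block also called Spon1, Ferd3l, Gli3, Crabp1, Dhrs3, Aldh1a2, Gata2, Gata3, Fev, Isl1 and Col3a1. Between 4.5DDC and 6.5DDC, libraries with the same number correlated at −0.22 to 0.38, so the numbers were not taken as pairing those libraries, and not every library correlated best with its own number. The blocked calls were already known when this was decided. With a single library left out, a time point keeps fewer libraries, and these are assumed to vary like the others.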
